A study of Homo sapiens with 6 samples.

Results

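Regulators of apoptosis from the BIRC and BCL2 gene families were followed here as members of a given list of symbols, which selected 10 of the 58302 genes in the RIP-seq table. They were the inhibitors of apoptosis BIRC5 (survivin), BIRC2 (cIAP1) and XIAP, the anti-apoptotic BCL2 proteins BCL2L1 (Bcl-xL) and MCL1, the pore-forming effectors BAX and BAK1, and the BH3-only proteins BID, BCL2L11 (BIM) and BBC3 (PUMA). RNA came from SW480 and DLD-1, 2 established human colorectal cancer (CRC) lines of epithelial origin, both labelled wild type and untreated. In each line, 1 Input library of total RNA, 1 library of RNA immunoprecipitated for the acetyltransferase NAT10 (RIP) and 1 library immunoprecipitated for N4-acetylcytidine (ac4C, by acRIP-seq) were deposited, so the 6 groups held 1 library each. There were no replicates and no test was possible, so each difference compares libraries, and each error given is a counting error of the recovered reads alone.

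Cells commit to mitochondrial apoptosis when BAX and BAK1 open the outer mitochondrial membrane and release cytochrome c. Anti-apoptotic BCL2 proteins hold BAX, BAK1 and the BH3-only proteins in check, whereas BH3-only proteins relay death signals to them. Downstream, XIAP blocks caspases directly, BIRC2 is a ubiquitin ligase of death receptor signalling, and survivin acts mainly in cell division as part of the chromosomal passenger complex. NAT10 is the enzyme that writes ac4C on RNA. The RIP-seq and acRIP-seq data address which transcripts NAT10 binds and which carry ac4C in CRC cells.

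The labels of the libraries had to be examined before any ratio was read. KRT20, an intestinal keratin, was at 29.2 FPKM (fragments counted per kilobase of gene model and scaled to the size of the library) in the Input labelled SW480 and 0.0426 FPKM in the Input labelled DLD-1, but it was listed at 0 in the RIP library labelled SW480 and at 23.9 FPKM in that labelled DLD-1. The Inputs of the acRIP table, at 20.5 FPKM in SW480 and 0.0501 FPKM in DLD-1, followed the Inputs of the RIP table. By the labels, the Inputs of both tables are the same sample in each line, so they are not independent. CDX2, an intestinal transcription factor, showed the same order, at 33.4 and 7.0 FPKM in the Inputs and 4.31 and 28.3 FPKM in the RIP libraries, SW480 before DLD-1. Pearson's r of log2(FPKM + 1), taken over 16196 protein-coding genes, was 0.944 between RIP SW480 and Input DLD-1 but 0.871 between RIP SW480 and Input SW480. It was 0.951 between RIP DLD-1 and Input SW480 but 0.856 between RIP DLD-1 and Input DLD-1. These correlations are across genes, which are not independent replicates. Whether labels were exchanged was not tested. RIP ratios of the regulators are therefore given over both Inputs, that of the same label and that of the other one.

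The epithelial identity of the libraries was clear from its markers. Of 10 epithelial genes, 7 or 8 lay above 1 FPKM in every library, with summed levels from 915 to 3373 FPKM. The 6 fibroblast genes summed to between 0.401 and 2.21 FPKM and the 6 leukocyte and blood genes to at most 1.27 FPKM, with CD3E and HBB listed at 0 in all 6 columns. Recovered reads came to at least 25498443 (RIP SW480), 20956710 (RIP DLD-1), 11309740 (Input SW480) and 10760588 (Input DLD-1). Depth of the acRIP libraries is unknown.

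All 10 regulators were expressed in every library and passed the filter on low values (1 FPKM or more in each Input), which 12324 genes passed. Their levels spanned from 2.56 FPKM (BBC3, acRIP-table Input labelled DLD-1) to 148 FPKM (BCL2L1, RIP library labelled SW480). BCL2L1 was the most abundant member per length in all 6 columns, with MCL1 next in 4 of them. In the Inputs of the RIP table, 97.5% and 98.4% of the detected genes lay at or below BCL2L1, and 94.1% and 92.8% lay at or below MCL1. The lowest member was BCL2L11 in the Input labelled SW480, with 59.1% of the detected genes at or below it, and BBC3 in that labelled DLD-1, with 57.2%. The fewest reads behind any value in the RIP table were 121, for BBC3 in the Input labelled DLD-1.

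**Figure D1:**
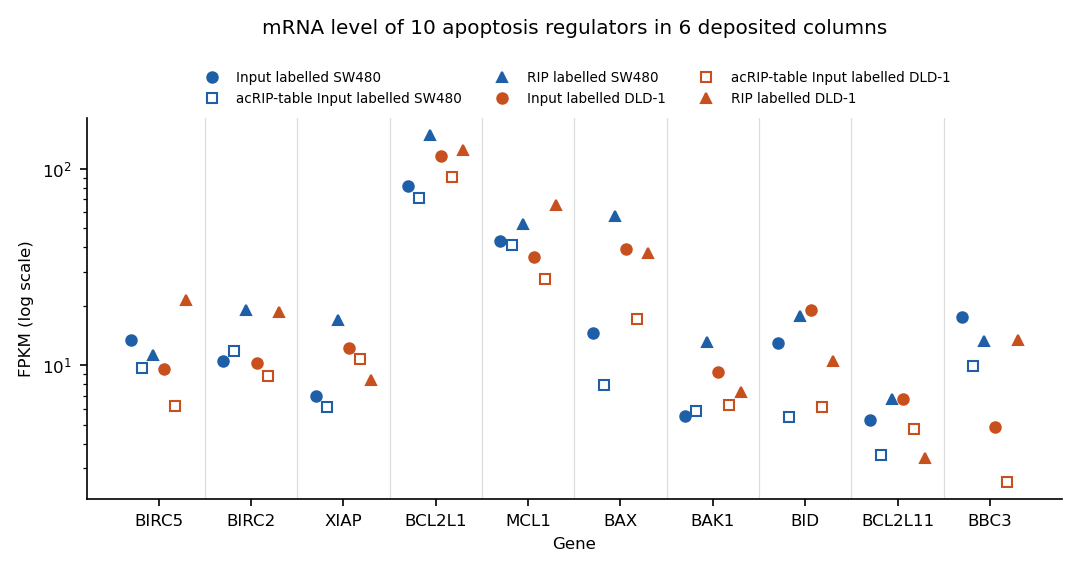
mRNA level of the 10 regulators (x axis) in FPKM (y axis, log scale) in 6 deposited columns, with 1 point per column. By the labels, the Inputs of both tables are the same sample in each line. Blue points are labelled SW480 and orange points DLD-1, circles are Inputs of the RIP table, open squares Inputs of the acRIP table and triangles RIP libraries. BCL2L1 lies highest in every column, and BBC3 is lowest in the acRIP-table Input labelled DLD-1 at 2.56 FPKM.

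The Input libraries were compared first, because they give the level of each mRNA in the lines without an immunoprecipitation. Of the 10 regulators, 4 were higher in the Input labelled SW480 and 6 were higher in that labelled DLD-1, and BAX and BBC3 stood out. BAX was at 14.7 FPKM in the Input labelled SW480 and 39.1 FPKM in that labelled DLD-1. The log2 ratio of SW480 to DLD-1 was -1.36 (counting SE 0.095), and -1.03 (counting SE 0.11) in the acRIP table, where the levels were 7.90 and 17.2 FPKM. BBC3 went the other way, at 17.6 FPKM against 4.88 FPKM, with a log2 ratio of 1.66 (counting SE 0.13). In the acRIP table BBC3 was at 9.97 and 2.56 FPKM, a log2 ratio of 1.62 (counting SE 0.13). Thus 1 member was at least 2-fold higher and 1 at least 2-fold lower in the Input labelled SW480, where 7.25% and 9.29% of the 12324 genes were so. The same pair passed the fold in the acRIP table, where the shares of all genes were 9.52% and 9.60%.

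The other 8 regulators differed by less than 2-fold between the Inputs. XIAP had a log2 ratio of SW480 to DLD-1 of -0.73 in each table, from 6.97 and 12.2 FPKM in the RIP table and 6.15 and 10.8 FPKM in the acRIP table. BAK1 was at -0.65, BID at -0.54, BCL2L1 at -0.49 and BCL2L11 at -0.31 in the RIP table. These were -0.09, -0.15, -0.35 and -0.35 in the acRIP table. The counting SE there was 0.20 for BAK1, 0.15 for BID and 0.19 for BCL2L1. Each is an upper limit, because the reads are the smallest that fit. For BCL2L1 these were 104 and 131 reads, against 3135 and 4087 in the Inputs of the RIP table. Whether 0 lies inside the 95% counting interval is therefore not settled for these genes. On the SW480 side were BIRC5 (0.45 and 0.57) and MCL1 (0.26 and 0.56). BIRC2 was at 0.03 (counting SE 0.076), within counting error of equality, and at 0.38 in the acRIP table. The order of the lines was the same in both tables for 10 of 10 regulators, beside 82.0% of all 12324 genes. Since the labels give both tables the same Input samples, this is not an independent repeat.

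Within a library, the summed level of BCL2L1 and MCL1 exceeded that of BAX and BAK1 throughout. The ratio of the sums was 6.20 in the Input labelled SW480 and 3.14 in the Input labelled DLD-1. It was 8.16 and 5.06 in the acRIP-table Inputs. In the RIP libraries it was 2.84 under the SW480 label and 4.27 under the DLD-1 label. The SW480 column thus held the higher ratio in both Input tables and the lower one among the RIP libraries. These are ratios of mRNA per length and say nothing of protein.

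The order of the lines turned in the RIP libraries. For 9 of the 10 regulators the label with the higher Input had the lower RIP value, and the exception was BIRC2. Among all 12324 genes 74.0% showed such a turn, so the members' share lies on the side of the whole table. On the FPKM + 1 scale no member was 2-fold apart between the RIP libraries, while 7.60% of all genes were at least 2-fold higher and 6.17% at least 2-fold lower under the SW480 label. On plain FPKM, XIAP (2.04-fold) and BCL2L11 (2.01-fold) were just past 2-fold. XIAP, for instance, was at 17.1 FPKM in the RIP library labelled SW480 and 8.40 FPKM in that labelled DLD-1, a log2 ratio of 0.95 (counting SE 0.037) against -0.73 in the Inputs. BIRC5 was at -0.89 between the RIP libraries and 0.45 between the Inputs.

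**Figure D2:**
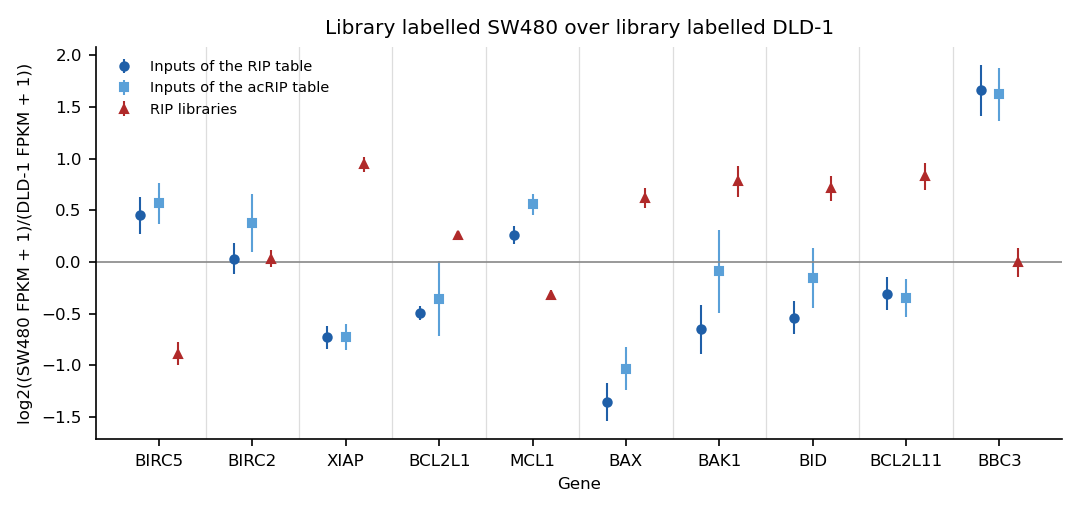
Log2 ratio of the library labelled SW480 to the library labelled DLD-1 (y axis, FPKM + 1) for the 10 regulators (x axis). Circles are the Inputs of the RIP table, squares the Inputs of the acRIP table and triangles the RIP libraries, and bars are 95% counting intervals. The bars, above all those of the squares, are upper limits because the reads are the smallest that fit. Circle and square lie on the same side of 0 for each gene, and the triangle lies on the opposite side from the circle for 9 of 10.

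NAT10 RIP over Input was then computed per label as log2((RIP FPKM + 1)/(Input FPKM + 1)) and this scale compresses changes of genes with low values. Under the SW480 label, 3 members were at least 2-fold above Input (XIAP, BAX and BAK1), where 15.6% of the 12324 genes were, and none was 2-fold below, where 16.0% of genes were. Under the DLD-1 label, 2 members were at least 2-fold above Input (BIRC5 and BBC3), beside 15.1% of genes, and none was 2-fold below, beside 19.2%. No regulator passed 2-fold under both labels, as 3.55% of all genes did. The median of the 10 was 0.62 under SW480 and 0.01 under DLD-1, beside medians of 0.05 and -0.05 over all genes and 0.18 and 0.07 over protein-coding genes. Only BIRC2, BCL2L1 and MCL1 lay above Input under both labels, 3 of 10 beside 28.2% of all genes. The other 7 had opposite signs, beside 43.6% of all genes. For RIP ratios, the Inputs of the acRIP table were first multiplied by 1.48 (SW480) or 1.54 (DLD-1). These factors are the median ratios of the RIP-table to the acRIP-table Input over protein-coding genes. Set against these scaled same-label Inputs, the members above Input under both labels were instead BIRC2, BAX and BID. Levels given for the acRIP table are unscaled.

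Read over the other label's Input, the ratios of the 10 moved closer together. Of these regulators, 7 lay above it for both RIP libraries (41.2% of all genes), BID and BCL2L11 lay below it for both, and BBC3 alone had opposite signs. At this Input, 1 member was at least 2-fold higher in the RIP library labelled SW480 (BBC3, beside 9.24% of genes) and 1 in that labelled DLD-1 (BAX, beside 9.36%). None was 2-fold lower, beside 11.7% and 11.8%. The medians of the 10 were 0.47 and 0.47, beside 0.02 and -0.004 over all genes and 0.11 and 0.09 over protein-coding genes. Over the other label's scaled Inputs of the acRIP table they were 0.36 and 0.11, beside 0.14 and 0.11 over protein-coding genes.

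**Figure D3:**
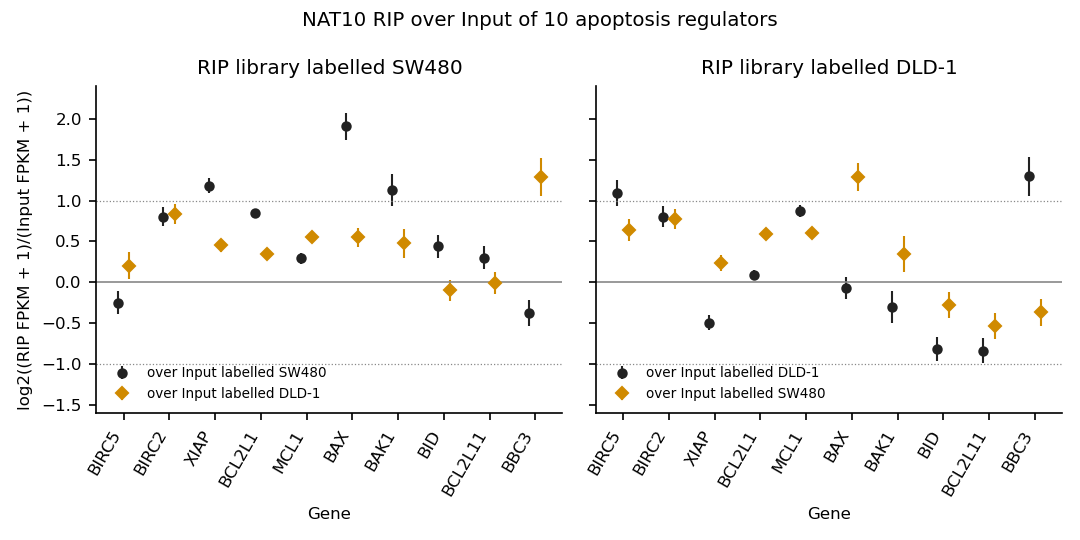
Log2((RIP FPKM + 1)/(Input FPKM + 1)) (y axis) of the 10 regulators (x axis) for the RIP library labelled SW480 (left) and DLD-1 (right). Black circles are ratios with the same label's Input, orange diamonds with the other label's Input, bars are 95% counting intervals and dotted lines mark 2-fold. Over the same label the circles range from -0.37 to 1.91 on the left and from -0.84 to 1.29 on the right.

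Among the inhibitors of apoptosis, BIRC2 gave nearly the same ratio with either Input of the RIP table. It was at 19.1 FPKM in the RIP library labelled SW480 and 18.7 FPKM in that labelled DLD-1, against 10.5 and 10.3 FPKM in the Inputs, so each RIP value lay above each Input value. Its log2 RIP over Input was 0.80 (counting SE 0.060) under SW480 and 0.80 (counting SE 0.064) under DLD-1, and 0.84 and 0.77 over the other Input. With the scaled acRIP-table Inputs it was lower, between 0.09 and 0.46. Unscaled, those Inputs were at 11.8 FPKM (SW480) and 8.87 FPKM (DLD-1), so the fall depends on the scaling.

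BIRC5 was at 11.2 FPKM in the RIP library and 13.5 FPKM in the Input labelled SW480. Under the DLD-1 label it was at 21.6 FPKM in RIP and 9.62 FPKM in Input, which made it the highest of the 4 values in the RIP library labelled DLD-1. The log2 ratio was -0.25 (counting SE 0.073) under SW480 and 1.09 (counting SE 0.078) under DLD-1. Over the other Input both were above 0, at 0.21 (counting SE 0.082) and 0.64 (counting SE 0.068). XIAP showed the reverse pattern, with 17.1 FPKM against 6.97 FPKM under SW480 and 8.40 FPKM against 12.2 FPKM under DLD-1. Its log2 ratios were 1.18 (counting SE 0.047) and -0.49 (counting SE 0.047), and 0.45 and 0.24 over the other Input. The table also holds the processed pseudogenes XIAPP1, XIAPP2 and XIAPP3, each under 1 FPKM in every library, and how reads were split between XIAP and these copies is not given in the sources used here.

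Both anti-apoptotic BCL2 members lay above Input under either label in the RIP table. Over the scaled same-label Inputs of the acRIP table, MCL1 was at -0.19 under SW480 and BCL2L1 at -0.18 under DLD-1. These signs rest on the scaling. Unscaled, those Inputs were at 40.8 FPKM (MCL1, SW480) and 91.4 FPKM (BCL2L1, DLD-1), below the RIP values. BCL2L1 was at 148 FPKM in RIP and 82.2 FPKM in Input under SW480, and at 124 and 116 FPKM under DLD-1. Its log2 ratio was 0.84 (counting SE 0.029) under SW480 and 0.10 (counting SE 0.027) under DLD-1. With the other label's Input the values were 0.35 and 0.59. BCL2L1 overlaps the antisense gene BCL2L1-AS1 in the RefSeq annotation, and whether the counting used strand is not given in the sources used here. MCL1, a short-lived protein that many tumours depend on, was at 52.7 FPKM in RIP and 42.9 FPKM in Input under SW480, and at 65.8 and 35.5 FPKM under DLD-1. Both RIP values exceeded both Input values. Its log2 ratio was 0.29 (counting SE 0.034) and 0.87 (counting SE 0.037), and 0.56 and 0.61 over the other Input.

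The effectors BAX and BAK1 were past 2-fold in the RIP library labelled SW480 and slightly below Input under DLD-1. BAX had the widest range of the 10 as a fold (3.93 from lowest to highest), at 57.7 FPKM in RIP and 14.7 FPKM in Input under SW480, and 37.2 and 39.1 FPKM under DLD-1. The Input labelled SW480 was thus the low value, and the other 3 lay at 37.2 FPKM or above. The log2 ratio was 1.91 (counting SE 0.084) under SW480 and -0.07 (counting SE 0.066) under DLD-1, the latter within counting error of 0. Against the other Input it was 0.55 (counting SE 0.060) and 1.29 (counting SE 0.088). BAX was above 0 in 9 of the 12 combinations of label and processing setting.

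BAK1 was at 13.2 FPKM in RIP and 5.51 FPKM in Input under SW480, and at 7.29 and 9.21 FPKM under DLD-1. Its log2 ratio was 1.13 (counting SE 0.10) and -0.30 (counting SE 0.10), and 0.48 and 0.35 over the other Input. A processed pseudogene, BAK1P1, was listed at 2.04 and 2.1 FPKM in the Inputs (SW480, then DLD-1) and at 0.265 and 0.187 FPKM after RIP. BAK1P1 was listed at 0 in both acRIP-table Inputs. How reads were split between gene and copy is not given in the sources used here, so the BAK1 ratios are uncertain.

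Among the BH3-only members, BID and BCL2L11 were the 2 regulators below the other label's Input of the RIP table in both RIP libraries, with the values of the library labelled SW480 within counting error of 0. BID, which caspase-8 cleaves to link death receptors to mitochondria, was at 17.9 FPKM in RIP and 12.9 FPKM in Input under SW480, and at 10.5 and 19.2 FPKM under DLD-1. Its log2 ratio was 0.44 (counting SE 0.072) and -0.81 (counting SE 0.074). Over the other Input it was -0.10 (counting SE 0.066) and -0.27 (counting SE 0.080). The direction of BID turned with the scaled acRIP-table Inputs, at 1.06 and 0.14 with the same label and 0.85 and 0.35 with the other label. BCL2L11 was at 6.75 and 5.30 FPKM under SW480 and at 3.36 and 6.78 FPKM under DLD-1, so that its lowest value was the RIP library labelled DLD-1. Its log2 ratio was 0.30 (counting SE 0.072) and -0.84 (counting SE 0.078), and -0.01 (counting SE 0.069) and -0.53 (counting SE 0.080) over the other Input.

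BBC3 was at 13.4 FPKM in each RIP library, with 17.6 FPKM in the Input labelled SW480 and 4.88 FPKM in that labelled DLD-1. The RIP values agree within counting error (log2 difference counting SE 0.073), and the spread of its ratios came from the Inputs. The log2 ratio was -0.37 (counting SE 0.080) under SW480 and 1.29 (counting SE 0.12) under DLD-1. With the Inputs exchanged it was 1.29 and -0.37.

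ac4C was examined through the deposited peak lists, in which each peak carries the authors' fold of acRIP over Input, a p-value and a position class. Positions are on GRCh38 and counted from 1. Lines are named as the lists are labelled, and whether the labels of the acRIP libraries are right was not tested. In SW480, 14 of 9536 listed peaks lay on 6 regulators, and in DLD-1, 12 of 13964 lay on 5. Thus 6 of 10 members had a peak in SW480 (44.2% of the 12324 genes did), 5 in DLD-1 (48.8%), and BIRC5, XIAP, MCL1 and BAX had one in both lines (34.4%). Shares were higher among protein-coding genes at or above a member's level in both Inputs. Of those, 79.9% (level of BCL2L11) to 88.4% (level of MCL1) had a peak in either line. A peak in both lines was found for 53.0% (level of BCL2L11) to 77.6% (level of BCL2L1). BBC3 and BCL2L11 had a peak in SW480 alone, BAK1 in DLD-1 alone. Of the 14 SW480 peaks, 7 overlapped a DLD-1 peak by at least 1 base, and 7 of the 12 DLD-1 peaks overlapped a SW480 peak, beside 54.9% and 36.3% of all listed peaks. No peak of a member was overlapped by a peak of another gene.

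Peaks on the regulators lay mostly in the 3′ UTR. That class held 12 of the 14 SW480 peaks and 8 of the 12 DLD-1 peaks, beside 53.0% and 41.5% of all listed peaks, and the rest were in coding sequence (CDS). The median fold on members was 14.6 in SW480 and 16.7 in DLD-1, beside 19.5 and 14.6 over all peaks. The lists also count sites of the pattern CXXCXXCXXCXX, in which X is any base. Such a site lay in 7 of 14 and 7 of 12 member peaks, beside 56.2% and 55.1% of all peaks. The sites are matches of letters and show no acetylated base.

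**Figure D4:**
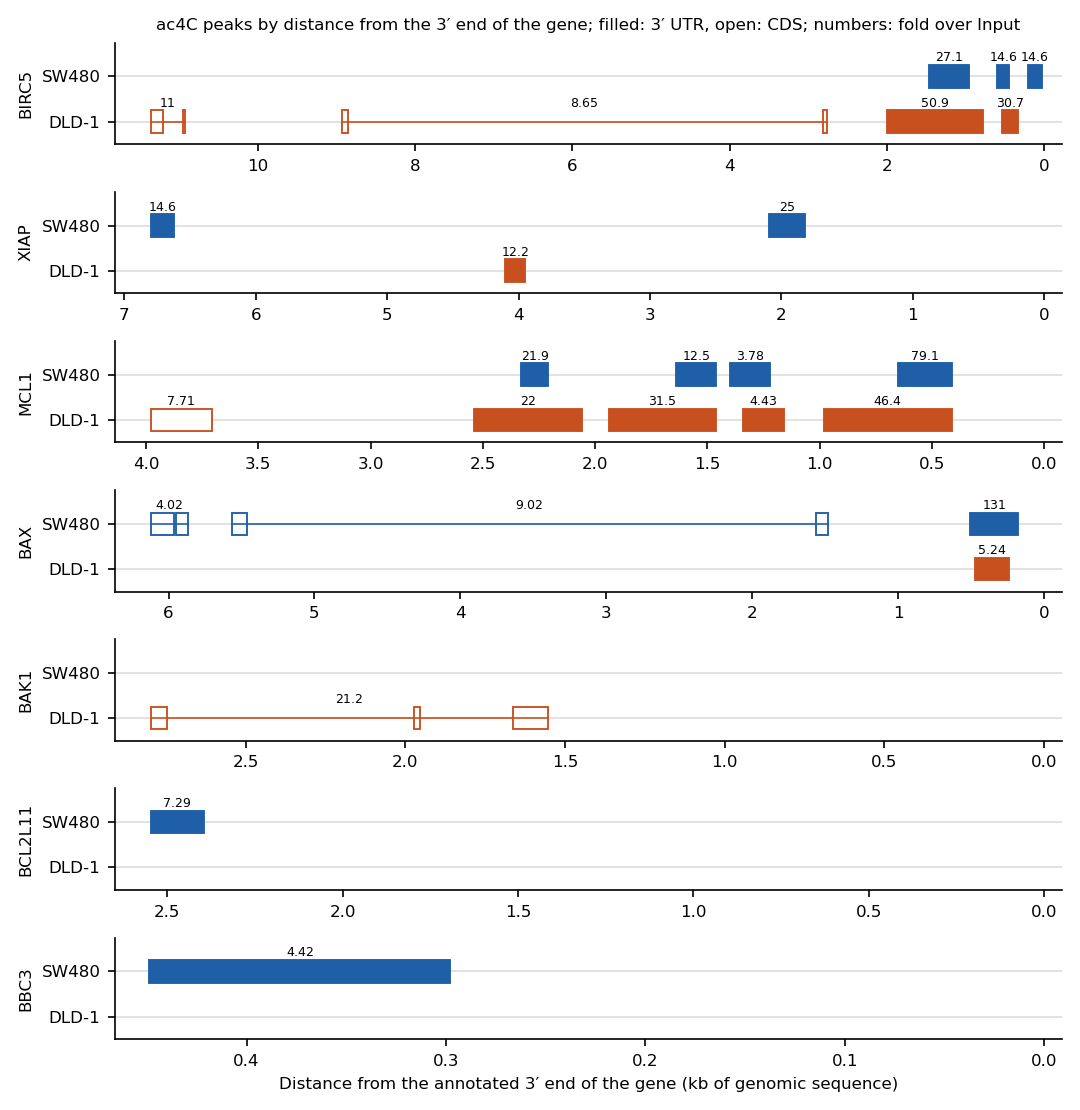
ac4C peaks on the 7 regulators with a peak in either line, placed by distance from the annotated 3′ end of the gene (x axis, kb of genomic sequence), with SW480 above (blue) and DLD-1 below (orange). Filled boxes are in the 3′ UTR and open boxes in coding sequence, thin lines join blocks of a peak across introns, and numbers are the authors' fold of acRIP over Input. MCL1 and BIRC5 have overlapping peaks in both lines within 3 kb of the end, and the 3 peaks on XIAP do not overlap.

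MCL1 (chr1:150574558-150579610, minus strand) had the most peaks, 4 in SW480 and 5 in DLD-1, and all 4 SW480 peaks overlapped a DLD-1 peak. The peak nearest the gene's 3′ end began at the same base in both lines, 412 bases from the annotated end. It spanned chr1:150574970-150575209 in SW480 with a fold of 79.1 (deposited log10 p score -22.3), and chr1:150574970-150575539 in DLD-1 with a fold of 46.4 (score -58.5). The other 3 shared peaks lay farther into the 3′ UTR, with folds of 3.78, 12.5 and 21.9 in SW480 and 4.43, 31.5 and 22.0 in DLD-1. A peak in coding sequence, chr1:150578266-150578536, was listed in DLD-1 and not in SW480, with a fold of 7.71. Peaks covered 722 bases in SW480 and 1982 bases in DLD-1, and only 1 pattern site was listed in both lines, within the shared peak of lowest fold.

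BIRC5 (chr17:78214253-78225635, plus strand) had 3 peaks in SW480, all in the 3′ UTR, and 4 in DLD-1. Its strongest peak in each line overlapped, chr17:78224176-78224683 in SW480 with a fold of 27.1 (log10 p score -33.8) and chr17:78223640-78224861 in DLD-1 with a fold of 50.9 (score -58.2). The DLD-1 peak was 1222 bases long and the SW480 peak 508. The same 3 pattern sites, at positions 78224361, 78224541 and 78224590, lay in both. A further overlapping pair had folds of 14.6 and 30.7 in SW480 and DLD-1 and shared the site at 78225139. In DLD-1, 2 weaker peaks lay in coding sequence, one of them starting 22 bases after the annotated gene start and holding 4 sites, with folds of 11.0 and 8.65.

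BAX (chr19:48954875-48961798, plus strand) had 3 peaks in SW480 and 1 in DLD-1. The shared 3′ UTR peak reached the highest fold of any member in SW480, 131 (log10 p score -37.8) at chr19:48961293-48961620, where 91.0% of SW480 peaks lay at or below it. In DLD-1 the peak at chr19:48961322-48961560 had a fold of 5.24 (score -7.29), where 9.68% of DLD-1 peaks lay at or below it. Both held the same 4 pattern sites. BAX mRNA was lower in the Input labelled SW480 than in that labelled DLD-1 in both tables. The folds come from separate peak lists with 1 library each, and their difference was not tested. In the pooled list the fold of this peak was 19.0.

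XIAP (chrX:123859708-123913972, plus strand) had 2 peaks in SW480 and 1 in DLD-1, all in the 3′ UTR and none overlapping another. They were chrX:123907174-123907353 (fold 14.6) and chrX:123911880-123912150 (fold 25.0) in SW480, and chrX:123909872-123910022 (fold 12.2) in DLD-1. None held a pattern site. BAK1 had 1 peak in DLD-1, in coding sequence across 3 blocks at chr6:33574107-33575349, with a fold of 21.2 and 2 sites. BBC3 had 1 SW480 peak at chr19:47221122-47221272 with a fold of 4.42, and its Input level was the higher in that line. The SW480 peak of BCL2L11 at chr2:111165898-111166048 had a fold of 7.29, and it alone of the member peaks in both lines did not reach an FDR of 0.05.

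BIRC2, BCL2L1 and BID had no peak in the SW480, DLD-1 or pooled list. BCL2L1 was the most abundant of the 10 members, so its level was set beside that of other genes. Of the 237 protein-coding genes at or above BCL2L1 in both Inputs, 87.8% had a peak in at least 1 line. The share was 85.7% of the 2665 genes at or above BID and 83.6% of the 4271 genes at or above BIRC2. BIRC2 and BCL2L1 were also among the 3 members above Input in RIP under both labels, and the third, MCL1, had peaks in both lines. An absent peak shows that none was listed, and not that the transcript carries no ac4C.

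The wider pathway was described through 37 further genes of apoptosis, of which 29 passed the Input filter. Of these 29, 8 were at least 2-fold above Input under SW480 and 9 under DLD-1, with 1 at least 2-fold below under each. The shares of all genes are those given above for the members, 15.6% and 15.1% above, 16.0% and 19.2% below. Of the 29, 13 lay above Input under both labels (28.2% of all genes) and 12 had opposite signs (43.6%). The list medians were 0.33 under SW480 and 0.69 under DLD-1, beside 0.05 and -0.05 over all genes. They were -0.04 and 0.30 with the scaled same-label Inputs of the acRIP table. With the other label's Input, 20 of the 29 lay above for both RIP libraries (41.2% of all genes) and 4 had opposite signs.

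Only BAD and HTRA2 were past 2-fold under both labels, 2 of 29 beside 3.55% of all genes. BAD, a BH3-only protein regulated by phosphorylation, was at 17.7 FPKM in RIP and 3.9 FPKM in Input under SW480, and at 14.3 and 3.39 FPKM under DLD-1. Its log2 ratio was 1.93 (counting SE 0.15) and 1.80 (counting SE 0.17). HTRA2, a mitochondrial protease that antagonises XIAP, was at 17.0 and 5.60 FPKM under SW480 and at 19.8 and 8.66 FPKM under DLD-1, with log2 ratios of 1.45 and 1.10. Their ratios over the other label's Input were 2.09 and 1.64 for BAD and 0.90 and 1.65 for HTRA2. With the scaled same-label Inputs of the acRIP table BAD was at 0.69 and 0.17 and HTRA2 at -1.36 and -1.36, so the sign of HTRA2 turned with the Input table. Both had a peak in each line.

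A further 13 genes of the list were at least 2-fold above Input under 1 label. Among the largest were MDM2 (1.87), TNFRSF10B (1.39) and CYCS (1.31) under SW480, and FADD (1.59) and PMAIP1 (1.26) under DLD-1. MDM2 is a ubiquitin ligase, TNFRSF10B a TRAIL receptor, CYCS cytochrome c, FADD the adaptor of death receptors and PMAIP1 the BH3-only protein NOXA. CASP6, an executioner caspase, was at -1.03 under SW480 and 1.0 under DLD-1, but at -0.02 and -0.01 with the Inputs exchanged. In the same RIP libraries and with the other label's Input of the RIP table, MDM2 was at 0.73, TNFRSF10B at 0.46 and CYCS at 1.06. FADD was at 0.88 and PMAIP1 at 0.68, so CYCS alone of these 5 stayed past 2-fold with that Input. With the scaled same-label Inputs of the acRIP table, MDM2 (1.26), TNFRSF10B (1.32) and PMAIP1 (1.12) were past 2-fold. CYCS was then at 0.69 and FADD at -0.23. The sign of FADD rests on the scaling, as does the fall of CYCS below 2-fold. Unscaled, CYCS was at 24.1 FPKM in that Input against 58.0 FPKM in RIP (SW480). FADD was at 16.2 FPKM against 21.2 FPKM (DLD-1).

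**Figure D5:**
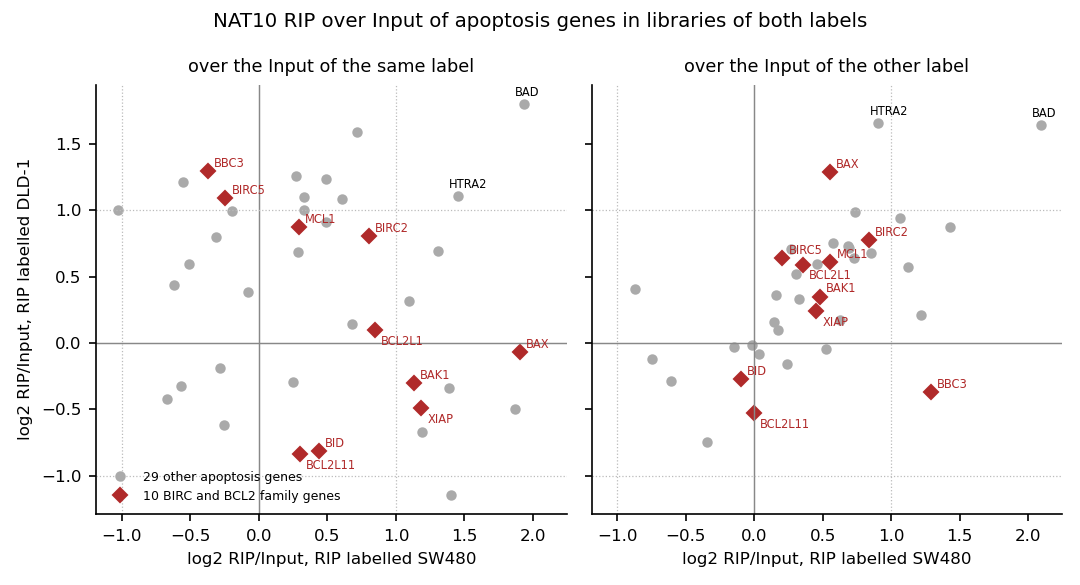
Log2((RIP FPKM + 1)/(Input FPKM + 1)) of the RIP library labelled SW480 (x axis) and DLD-1 (y axis), with the same label's Input (left) and the other label's Input (right). Red diamonds are the 10 regulators, grey circles the 29 other apoptosis genes past the Input filter, and dotted lines mark 2-fold. On the left 7 regulators lie in quadrants of opposite sign, and on the right 1 does (BBC3).

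ac4C peaks lay on 16 of the 37 pathway genes in SW480 and on 16 in DLD-1, all of them among the 29 past the Input filter, beside 44.2% and 48.8% of all genes past it. These shares of all genes are not matched for level. By role, they lay on 2 of 3 apoptosome genes and 2 of 3 executioner caspases in each line, and on 2 of 10 death receptor genes in SW480 and 4 in DLD-1. None of the 4 further anti-apoptotic BCL2 genes had a peak, and 3 of those 4 did not pass the Input filter. BCL2 itself was among them, at 0.0550 and 0.308 FPKM in the Inputs labelled SW480 and DLD-1. BCL2L1 and MCL1 were thus the anti-apoptotic BCL2 mRNAs of highest level here, followed by BCL2L2 at 8.31 and 6.97 FPKM.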

How the data were processed

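The RIP-seq table deposited by the authors holds FPKM values per Ensembl gene for the RIP and Input libraries of SW480 and DLD-1. A second deposited table, of the acRIP-seq data, gives Input values read here as FPKM, although their unit is not named and its gene lengths differ (1 of the 10 genes gave whole reads common to both tables). The control is called Input in the labels and tables and IgG in the study's text. In 3 lists of peaks deposited by the authors (each line and pooled), each peak has a p-value, the scores log10 of p and of the FDR, a fold over Input and a count of pattern sites. The peak caller is not given in the sources used here. HISAT2 2.1.0 and cutadapt 2.5 are named in the submitters' processing notes, with no role stated. The authors' own RIP to Input ratios were not used, and neither were the acRIP expression columns.

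Ratios were log2((RIP + 1)/(Input + 1)), called at 2-fold, over 12324 genes (1 FPKM or more in each line's Input). For ratios over an acRIP-table Input, that Input was first multiplied by 1.48 (labelled SW480) or 1.54 (labelled DLD-1). These factors are the medians of RIP-table Input over acRIP-table Input, across protein-coding genes past the filter. Levels of the acRIP table, and ratios between its Inputs, are unscaled. Smallest whole reads were solved from FPKM steps (relative tolerance 3e-08) for 99.0% of 23515 genes above 0 in at least 2 columns, and the method was tested on simulated data. As the reads are the smallest that fit, counting errors from them are upper limits. They cover counting alone, since PCR copies are not independent molecules. Peaks sharing 1 base within blocks of the same strand were called overlapping. Starts in the lists count from 0 and were moved by 1 base. Gene positions are from RefSeq (GRCh38.p14). All 10 members and, of the 37 pathway genes, those past 2-fold under both labels and up to 6 of the largest under 1 label were to be named. A result for 1 of these is not reported here. CASP6, BCL2 and BCL2L2 were named in addition, after their values were seen. Members and lists were chosen with earlier results of these data known. Alternatives were a pseudocount of 0.1, other Inputs, centring, other backgrounds, p and FDR limits and 50% overlap. Computations used Python 3.11.15, pandas 2.3.3, numpy 2.4.6 and matplotlib 3.10.9.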

Additional observations from a re-analysis of the deposited data

Results flagged for a closer look

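Of the 10 regulators, 7 had RIP over Input in opposite directions under the SW480 and DLD-1 labels. With 1 library per group these differences were not tested. As log2 ratio under SW480 minus log2 ratio under DLD-1, the difference was 1.98 for BAX, 1.68 for XIAP, 1.43 for BAK1, 1.25 for BID and 1.13 for BCL2L11. It was -1.34 for BIRC5 and -1.67 for BBC3. With the other label's Input the differences were -0.74 for BAX, 0.22 for XIAP, 0.13 for BAK1, 0.17 for BID, 0.52 for BCL2L11, -0.43 for BIRC5 and 1.66 for BBC3.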

How the results depend on the processing

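No paired analysis was possible because the labels give no replicate numbers and each group held 1 library, and for the same reason no replicate could be left out. The Input used moved the ratios most. Of 20 ratios (10 regulators, 2 labels), 8 changed sign over the Input of the other label, 4 over the acRIP-table Input of the same label, 6 over that of the other label, and 0 with a pseudocount of 0.1 FPKM or with centring on protein-coding genes. The acRIP-table Inputs are scaled here, and signs over them depend on that scaling. BBC3 under DLD-1 turned to -0.368 with the other label's Input and to -0.128 over the scaled one of the acRIP table. Unscaled, that Input was at 9.97 FPKM, below the RIP value of 13.4 FPKM. Between RIP libraries in place of Inputs, BAX was at 0.62 and BBC3 at -0.00451, and 0 regulators were 2-fold apart on the FPKM + 1 scale (2 on plain FPKM).

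With the other label's Input, 1 regulator per label was past 2-fold, 7 lay above Input for both and 1 had opposite signs. With the acRIP table's scaled Input under the other label these were 1 (DLD-1), 6 and 3. In the pathway list, with the RIP table's Input under the other label, the counts past 2-fold became 5 above and 0 below under SW480, and 2 above and 0 below under DLD-1, with a DLD-1 median of 0.404, and centring brought the SW480 median to 0.149. With the acRIP table's scaled Inputs of the same and the other label, the SW480 medians were -0.0385 and 0.176 and the DLD-1 medians 0.30 and 0.0451. Counts above 2-fold were then 4 and 3 under SW480 and 6 and 1 under DLD-1, and counts below were 2 and 1 under SW480 and 3 and 1 under DLD-1. The plain FPKM count and these acRIP settings for the list were chosen after seeing the data. Over protein-coding genes 9.17% (SW480) and 12.8% (DLD-1) were 2-fold below Input. Peaks with a p under the list median were 3 on 3 regulators in SW480 and 6 on 2 in DLD-1, with 2 regulators in both lines and 2 overlapping SW480 peaks. At 50% overlap of each peak, 2 SW480 peaks overlapped a DLD-1 peak. The cause of these shifts was not tested.

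One library per group gives no spread between samples. The acRIP-table Inputs rest on other gene lengths, so the ratio of a RIP library to them is not on 1 scale per length.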
